A study of Drosophila melanogaster with 2 samples.

Results

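The fourth chromosome of Drosophila melanogaster is a very small autosome whose gene-bearing part is packaged largely as heterochromatin. Its genes were taken as all rows of the deposited tables with a locus on chromosome 4, leaving out names that start with RpL, RpS, eIF or MED. This gave 109 of the 17720 listed genes, lying between positions 879 and 1271759 of that chromosome in the dm6 build. The 3 genes left out by name were RpS3A, eIF4G1 and MED26. Of the 109, 75 were protein-coding, 13 were long noncoding RNAs, 10 antisense RNAs, 7 pseudogenes, 2 miRNA precursors and 1 a snoRNA, and ABCD had no match in the RefSeq table.

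RNA was measured after RNA immunoprecipitation (RIP), in which an antibody pulls a protein out of a lysate together with its RNA. Ovaries came from Oregon-R, a wild-type strain, from females at most 12 hours after eclosion, with about 200 females per RIP, and 1 ovarian lysate was divided between both precipitations. The Lsd1-RIP library used an antibody against Lsd1, a histone demethylase of chromatin silencing, and the IgG-RIP library is the control, whose label names an antibody against GFP. There was 1 library per group and no input library among these samples. Differences between the conditions therefore have no test and no p-value, and intervals cover counting error and the assignment of fragments at most, not the variation between precipitations.

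The genes of the fourth chromosome sit among many transposon remnants and carry HP1a and methylated histone H3 over much of their length, yet many of them are expressed at the level of genes in euchromatin. The chromosome has its own regulator, Pof, a protein that binds its transcripts and genes, and the methyltransferase egg (the fly SETDB1) places methyl groups on histone H3 there. Genes of the chromosome include patterning transcription factors, guidance receptors and ligands, and housekeeping genes of mitochondria and translation.

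The values are FPKM as deposited, fragment counts scaled to transcript length and library size. The ratio used throughout is on the log2 scale, Lsd1-RIP over IgG-RIP, after a pseudocount of 1 was added to each FPKM. The pseudocount understates the ratio of genes at low FPKM. Where a gene is said to go from a first to a second level, the first is its FPKM in the IgG-RIP library and the second that in the Lsd1-RIP library, with the log2 ratio in parentheses. A gene is called eligible where the deposited status is OK on each side and the FPKM averages at least 1, which held for 6025 genes of the whole table. The ratios of all eligible genes had a median of 0.32, a 1.25-fold offset between the libraries against which each ratio is to be read. As for the tissue, the germline marker vas had FPKM of 10.5 (control) and 13.6 (Lsd1-RIP) and tj, a somatic ovarian marker, 5.04 and 6.29. Both fat body markers and elav had FPKM of at most 0.204, and Syt1 was listed at 0. In a bulk lysate, fewer cells of a type and less RNA per cell cannot be told apart.

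Of the 109 genes, 73 were listed above 0 in both libraries, 4 in the IgG-RIP library alone, 2 in the Lsd1-RIP library alone and 30 in neither. Of all 17720 listed genes 49% were above 0 in both. Among protein-coding genes the share was 86.7% (65 of 75) on the fourth chromosome and 59.8% of 13572 elsewhere. Protein-coding loci on the fourth chromosome are long, with a median span of 10426 nt against 2154 nt elsewhere. Among the 50 protein-coding genes elsewhere nearest in span to each gene of the chromosome, 74.1% were listed above 0 in both. Eligible genes made up 57.3% of the protein-coding genes on the chromosome, 49.9% of those of like span elsewhere and 42.0% of all those elsewhere.

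The eligible set held 44 of the 109 genes: 43 protein-coding genes and ABCD. No noncoding RNA or pseudogene of the chromosome reached the minimum. The 44 genes had a median mean FPKM of 4.42, against 3.23 for the 5843 eligible genes elsewhere, and a median locus span of 9201 nt against 2848 nt. They rested on medians of 169 (control) and 216 (Lsd1-RIP) approximate fragments, against 84.0 and 98.6 for genes elsewhere. bt and PlexB, with IgG-RIP levels below 1, passed the minimum through the Lsd1-RIP library. Just inside the minimum lay bt, with a mean FPKM of 1.02, and Asator, with 1.39. Just outside lay CG31999, with 0.922, and fuss, with 0.731.

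As a group, genes of the fourth chromosome had higher Lsd1-RIP to IgG-RIP ratios than most genes, and the ratios that genes of like level and locus span had elsewhere were nearly as high. The median ratio of the 44 genes was 0.53 (middle 50% of genes, 0.28 to 0.65), a 1.44-fold difference between the libraries before the offset, and 0.20 once the offset was removed. The ratio was above the all-gene median for 31 of the 44 genes, or 70.5%, where the share over all eligible genes is 50% by construction. For each gene, like genes were the 50 eligible genes off the fourth chromosome nearest in mean FPKM and locus span. Among these like genes the share above it was 66.9%. The whole interval lay above the all-gene median for 21 genes, where 17.5% of all eligible genes did so. It lay below for 2, ATPsynbeta and ND-49, where 12.7% did. These interval shares were not computed among like genes. The 44 genes rested on more fragments than genes elsewhere (medians of 169 and 216 against 84.0 and 98.6). Intervals narrow as fragments increase. bt and PlexB, which passed the minimum through the Lsd1-RIP library, are among the 31 and among the 21. The FPKM of the 5 germline markers summed to 123 in the control and 224 after Lsd1-RIP, of which osk alone held 91.9 and 165. Of the 5 markers, vas, nos, osk and otu were above the all-gene median, as was bam, which passed the minimum only through the Lsd1-RIP library (0.654 and 1.42). All 3 follicle and somatic markers were below it, with sums of 124 and 139, of which Yp1 alone held 117 and 131. Both libraries came from the same divided lysate, and what sets the marker ratios apart was not tested.

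**Figure D1:**
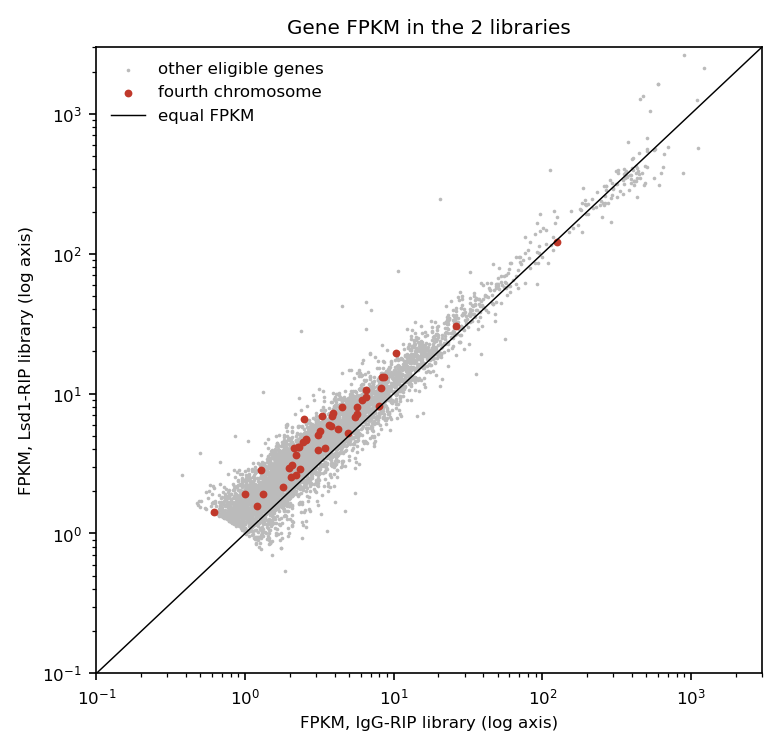
FPKM of each eligible gene listed above 0 in both libraries, IgG-RIP on the horizontal and Lsd1-RIP on the vertical axis, both logarithmic, within the plotted range. The 44 genes of the fourth chromosome (red) lie inside the cloud of the other genes (grey), and all but ATPsynbeta lie above the line of equal FPKM.

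The difference between each gene's ratio and the median of its like genes was small on balance. It had a median of 0.023 over the 44 genes (middle 50%, -0.20 to 0.18). Over the 5843 eligible genes elsewhere, treated in the same manner, the median was -0.0014 and the middle 50% ran from -0.18 to 0.17. On the fourth chromosome 25 genes were above their like genes and 19 below, where 49.1% of all eligible genes were above. The 25 include bt and PlexB, which passed the minimum through the Lsd1-RIP library. When genes elsewhere were matched on mean FPKM alone, without locus span, the median difference was 0.18.

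Chromosome arms differed little from each other in the same measures. Eligible genes of the arms 2L, 2R, 3L, 3R and X had median ratios of 0.31, 0.34, 0.34, 0.32 and 0.36, all below the 0.53 of the fourth chromosome. Their median differences from like genes lay between -0.0070 and 0.010. The 116 eligible genes in the pericentric regions of the large arms, the other main heterochromatic part of the genome, had a median ratio of 0.42 and a median difference from like genes of 0.0010, with a median locus span of 5948 nt. The median implied transcript length, as fragments per FPKM, was 24.98 there, below the 25.5 to 31.9 of the arms, and 52.3 on the fourth chromosome. Matched on mean FPKM and implied length in place of span, the pericentric genes had a median difference from like genes of 0.10, with 64.9% of them above.

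**Figure D2:**
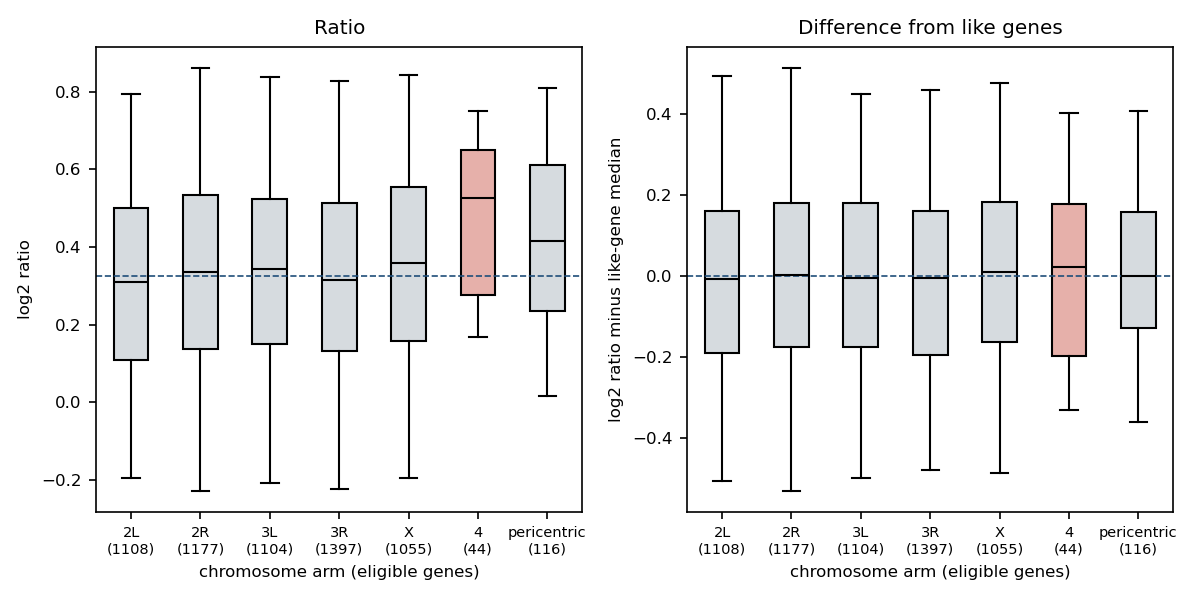
Boxes give the middle 50% and median of eligible genes per chromosome arm, with whiskers from the 5th to the 95th percentile, for the log2 ratio (left; dashed line, all-gene median) and for the ratio minus the median of like genes (right; dashed line, 0). Pericentric genes also belong to their arms. The fourth chromosome (red) has the highest median ratio, 0.53, and a median difference from like genes of 0.023.

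Correlations of ratio and length had the same sign on the chromosome and over all eligible genes, which include those of the chromosome. For locus span the correlation on the chromosome was weak. Across the 44 genes the ratio correlated with log2 locus span at a Pearson r of 0.23 and a Spearman rho of 0.16, and across all eligible genes at 0.23 and 0.36. Transcript length implied by the fragments per FPKM gave 0.42 and 0.35 over 43 genes of the chromosome and 0.35 and 0.40 over 5472 genes. Without ATPsynbeta, span gave 0.20 and 0.12 on the chromosome, and implied length 0.36 and 0.31. These correlations are across genes of the same pair of libraries, so they are descriptions, and implied length and the ratio share the same FPKM values. With genes elsewhere matched on mean FPKM and implied length, the median difference over the 43 genes was 0.036, and 24 of them were above their like genes.

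The range within the chromosome was wide, from ATPsynbeta at -0.063 to unc-13 at 1.12, and 43 of the 44 ratios were above 0. Deposited intervals did not overlap between the libraries for 27 genes, all of them higher in the Lsd1-RIP library, which is 61.4% of the 44. Over all eligible genes 36.1% were higher in this way and 1.64% lower. Among the like genes 62.5% were higher in this way and 0.636% lower. For 8 genes the whole interval of the ratio lay above the median of their like genes, and for 8 it lay below, where the shares over all eligible genes were 13.1% and 13.3%. bt and PlexB, which passed the minimum through the Lsd1-RIP library, are among the 27 and among the 8 above. For bt the difference from like genes was 0.12, but -0.11 when matched on mean FPKM and implied length.

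**Figure D3:**
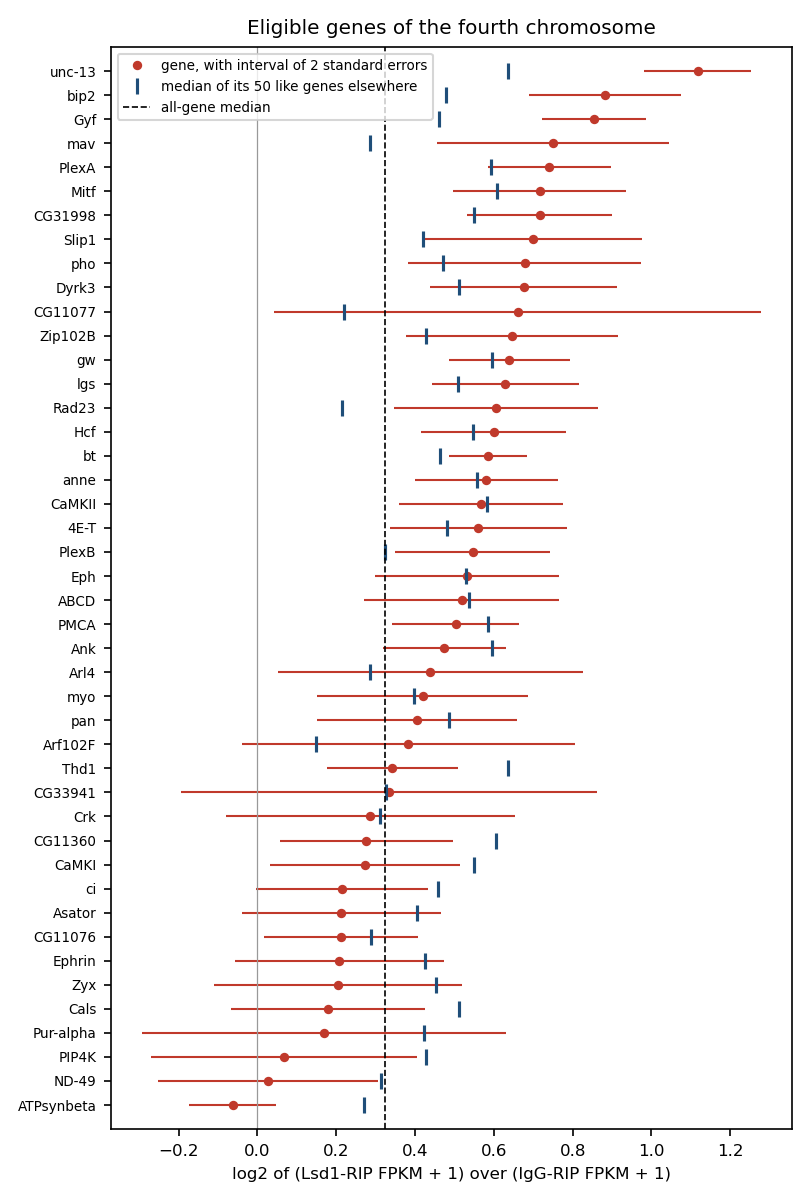
Log2 ratio of each of the 44 eligible genes of the chromosome (red points; bars, intervals of 2 standard errors on each side, computed from the bounds of the FPKM), ordered by ratio, with the median of each gene's 50 like genes elsewhere (blue marks) and the all-gene median of 0.32 (dashed). unc-13 is the highest at 1.12 and ATPsynbeta the lowest at -0.063, and blue marks lie on both sides of the red points.

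The gene unc-13 (chr4:867824-912331), whose protein primes synaptic vesicles for release, was the only gene of the chromosome with a log2 ratio of 1 or more on the pseudocount scale, and no gene of the chromosome was at -1 or less. Its FPKM was 2.50 in the control and 6.60 after Lsd1-RIP, which is 2.64-fold higher, with a log2 ratio of 1.12 (interval 0.98 to 1.25). Of all eligible genes 2.12% were at 1 or more and 0.697% at -1 or less, and of the like genes 3.59% were at 1 or more. It rested on about 397 and 799 fragments. Of the 44 genes it was the furthest above its like genes, at 0.48, and the median of those like genes was 0.63. The antisense RNAs asRNA:CR43425 and asRNA:CR44029, which overlap its locus, were listed at 0 in both libraries, and the libraries do not mark strand.

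Beside unc-13 lies Gyf (chr4:853557-867025), which encodes a GYF-domain protein and went from an FPKM of 10.3 to 19.5, a log2 ratio of 0.85 (interval 0.72 to 0.99). bip2 (chr4:459887-466828), listed as Taf3 in the RefSeq table and encoding a subunit of the general transcription factor TFIID, went from 3.30 to 6.93, a ratio of 0.88 (interval 0.69 to 1.08). These were the next highest after unc-13, 0.39 and 0.40 above their like genes. Neither locus overlapped another gene listed above 0.

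The 3 lowest ratios were those of ATPsynbeta, ND-49 and PIP4K. ATPsynbeta (chr4:1031484-1034917), the catalytic beta subunit of ATP synthase, was at 126 in the control and 121 after Lsd1-RIP, a ratio of -0.063 (interval -0.17 to 0.048). It alone held 39.4% (control) and 29.4% (Lsd1-RIP) of the summed FPKM of all 109 genes. Without it the summed FPKM of the others was 193 and 289, 1.49-fold higher after Lsd1-RIP. ND-49 (chr4:568296-571554), a subunit of respiratory complex I, went from 7.93 to 8.09 (0.027), and PIP4K (chr4:1192419-1196848), a phosphatidylinositol phosphate kinase, from 4.96 to 5.24 (0.067). The intervals of all 3 ratios lay below the medians of their like genes, by differences of -0.33, -0.29 and -0.36 in the point values. ATPsynbeta was less closely matched than most genes, with median fold gaps to its like genes of 1.57 in FPKM and 1.48 in span. Its locus overlaps the end of CG11076, which went from 26.2 to 30.5 (0.21).

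Among the transcription factors of signalling and patterning, 11 of 13 listed genes were above 0 in at least 1 library and 4 were eligible. ci (chr4:47710-57041), the zinc-finger factor that carries Hedgehog signals, went from 2.04 to 2.53, a ratio of 0.21 that lay 0.11 below the all-gene median (centred value -0.11). pan, the TCF factor of Wingless signalling, went from 1.97 to 2.93 (0.41), and lgs, which links the Wingless effector Armadillo to its coactivators, from 2.31 to 4.12 (0.63). Mitf, a factor that activates lysosomal genes, went from 4.49 to 8.03 (0.72). Thus the all-gene median was exceeded by 3 of these 4 genes, but only 2, lgs and Mitf, were above their like genes, and for ci the whole interval lay below the like-gene median of 0.46. The retinal determination genes ey and toy and the factors dati, onecut, Sox102F, NfI and fd102C had FPKM of at most 0.27 in both libraries, and sv and zfh2 were listed at 0.

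The list of chromatin and transcription genes held pho and Hcf, while bip2 was in no list. pho (chr4:1172469-1181628), the DNA-binding protein of the Polycomb group, went from 2.58 to 4.72, a ratio of 0.68 (interval 0.38 to 0.97). Hcf, a cofactor of histone-modifying complexes, went from 3.20 to 5.37 (0.60). Both were above the all-gene median, with intervals that did not reach down to it, and stood 0.21 and 0.053 above their like genes.

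The genes of mRNA translation and decay were all eligible, 5 of 5, and 4 were above both the all-gene median and their like genes. gw (chr4:649041-663103), the GW182 protein of miRNA silencing, went from 6.49 to 10.7 (0.64). 4E-T, a binding partner of the cap-binding protein eIF4E, went from 3.09 to 5.03 (0.56), and the kinase gene Dyrk3 from 2.44 to 4.49 (0.68). Of these, gw and 4E-T stood only 0.045 and 0.078 above their like genes, while Gyf stood 0.39 above. Pur-alpha, which encodes a nucleic acid-binding protein, was at 1.81 and 2.16 (0.17, interval -0.29 to 0.63), on about 31.3 and 37.8 fragments.

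The fourth chromosome carries 3 genes for ligands of the TGF-beta superfamily, of which myo and mav were eligible and Actbeta was listed at 0 in both libraries. mav (chr4:623219-626031) went from 1.27 to 2.82, 2.22-fold higher with a ratio of 0.75 (interval 0.46 to 1.04), and myo from 2.06 to 3.10 (0.42). mav stood 0.46 above its like genes, the second-largest such difference on the chromosome, and myo 0.022 above.

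Guidance and synapse genes, with unc-13 among them, had ratios from 0.18 to 1.12. The ephrin receptor gene Eph went from 2.21 to 3.64 (0.53, interval 0.30 to 0.77), and its ligand gene Ephrin from 2.35 to 2.87 (0.21, interval -0.057 to 0.47). The semaphorin receptor genes PlexA and PlexB went from 3.93 to 7.24 (0.74) and from 0.992 to 1.91 (0.55). The intervals of Eph and Ephrin both held the all-gene median and overlapped each other, while those of PlexA and PlexB lay above that median. Cals, a calsyntenin gene, went from 2.20 to 2.63 (0.18), and CaMKI, a calmodulin-dependent kinase gene, from 5.45 to 6.79 (0.27). Their whole intervals lay below the medians of their like genes, 0.51 and 0.55. Of the 11 genes in the list 7 were eligible, 4 above the all-gene median and 4 above like genes. Each of these counts includes PlexB, which passed the minimum only through the Lsd1-RIP library. mGluR, Cadps, Syt7 and Ekar were below the minimum, with FPKM of at most 0.73.

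Among genes of the cytoskeleton, adhesion and signalling, 7 of 9 were eligible, 3 were above the all-gene median and 2 above like genes, with a median ratio of 0.29. Each of these counts and the median include bt, which passed the minimum only through the Lsd1-RIP library. Matched on mean FPKM and implied length, bt was below its like genes (difference -0.11). Ank, an ankyrin gene of the membrane skeleton, went from 6.55 to 9.48 (0.47), and Slip1 from 2.13 to 4.08 (0.70). bt (chr4:724400-776474), which encodes projectin, a giant protein of the sarcomere, went from 0.619 to 1.43 (0.58, interval 0.49 to 0.68). Of the muscle markers, Mhc was at 8.20 and 5.62, up at 38.6 and 19.3 and Act57B at 56.0 and 62.8 (all 3 above 0, sums 103 and 87.7). Both libraries came from the same divided lysate, and the source of the bt ratio was not tested. Crk, an adaptor of receptor signalling, was at 5.70 and 7.18 (0.29), Zyx, a focal adhesion protein gene, at 3.44 and 4.11 (0.20), and the kinase gene Asator at 1.21 and 1.56 (0.21). These 3 ratios were below the all-gene median, with intervals that held both that median and 0. RhoGAP102A and Kif3C stayed at an FPKM of 0.24 or below.

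In the list of metabolism, transport and protein turnover, 8 of 11 genes were eligible, 6 were above the all-gene median and 4 above like genes. Rad23 (chr4:308093-310822), which delivers ubiquitinated proteins to the proteasome, went from 8.30 to 13.2 (0.61), 0.39 above its like genes. Its neighbour Zip102B, a gene of the ZIP family of zinc transporters, went from 2.27 to 4.12 (0.65), 0.22 above. PMCA, the calcium pump of the plasma membrane, went from 6.08 to 9.03 (0.50), and Thd1, listed as Tdg in the RefSeq table and encoding a thymine DNA glycosylase, from 4.21 to 5.60 (0.34). For these long genes the like-gene medians were 0.59 and 0.64, so both were below them. The small GTPase genes Arl4 and Arf102F went from 5.66 to 8.03 (0.44) and from 8.22 to 11.0 (0.38), and the deposited intervals of both overlapped between the libraries. The fat body lipoprotein gene apolpp was at 0.17 and 0.41, and yellow-h and JYalpha had at most 0.20.

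**Figure D4:**
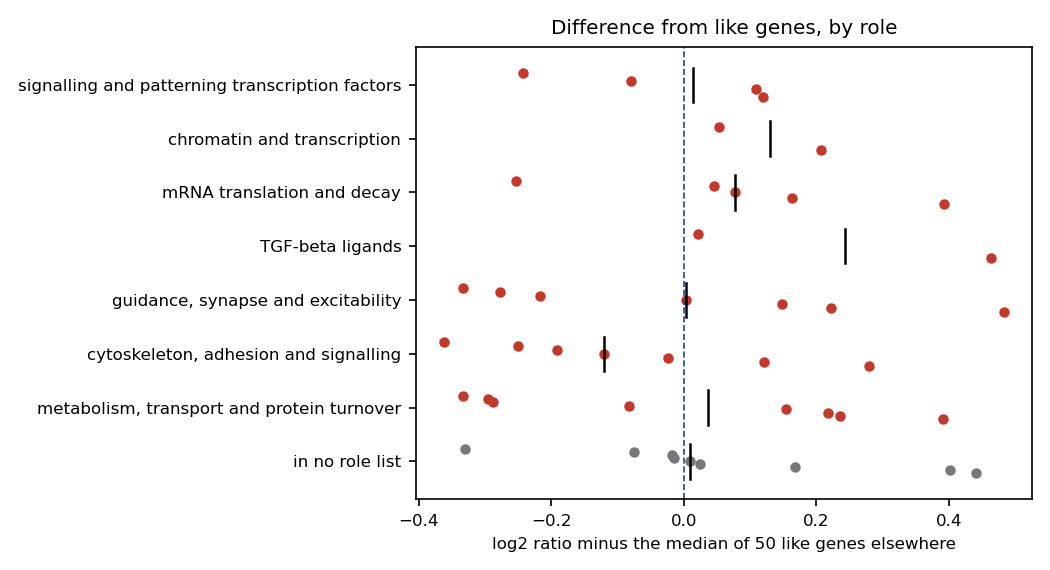
Each point is an eligible gene of the chromosome, placed by its log2 ratio minus the median of its 50 like genes elsewhere and grouped by role (vertical spread within a row has no meaning), with short black lines at the group medians. Points lie on both sides of 0 in 6 of the 8 rows, and the medians run from -0.12 for the 7 genes of cytoskeleton, adhesion and signalling to 0.24 for the 2 eligible ligand genes.

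The 9 eligible genes in none of these lists had ratios from 0.21 to 0.88 and a median of 0.57. CaMKII, the calcium/calmodulin-dependent kinase of synaptic plasticity, went from 8.60 to 13.2 (0.57), and CG31998 from 3.83 to 6.93 (0.72). CG11077, listed as Mpv17 in the RefSeq table, went from 2.59 to 4.67 (0.66, interval 0.042 to 1.28), on about 21.0 and 32.1 fragments. CG11360 went from 3.08 to 3.94 (0.28), 0.33 under its like genes (difference -0.33). Among these 9 genes, 7 exceeded the all-gene median and 5 their like genes.

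Values along the chromosome were compared in stretches. In 3 equal lengths between the first and last listed base, the 13, 16 and 15 eligible genes had median ratios of 0.52, 0.38 and 0.57 and median differences from like genes of 0.025, 0.0063 and 0.11. Each stretch held both genes above and genes below their like genes, with 7, 9 and 9 above.

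Below the minimum, 35 genes were above 0 in at least 1 library, on medians of 1.04 and 3.30 approximate fragments. Of these, 27 (77.1%) had the higher FPKM in the Lsd1-RIP library, against 65.8% of the 4270 such genes in the whole table. The deposited intervals were apart for 2, both higher in the Lsd1-RIP library, against 5.15% of such genes: the pseudogene CR32011 (0.317 to 0.684) and apolpp. The neighbouring pseudogenes CR32010 and CR32009 went from 0.285 to 0.539 and from 0.303 to 0.590, with overlapping intervals. Levels were lower after Lsd1-RIP for 8 genes, among them CG11155 (0.456 and 0.269) and CG33978 (0.192 and 0.0948), whose intervals also overlapped. lncRNA:sphinx, a young gene that arose on this chromosome by retroposition and lies within the locus of fuss, was at 0.269 and 0.932 on about 0.775 and 4.46 fragments. A value of 0 in both libraries was listed for 6 of the 13 long noncoding RNAs, all 10 antisense RNAs and both miRNA precursors. A listed 0 need not mean absence.

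The 3 genes left out by name lay at both ends of the range. RpS3A, a ribosomal protein gene, went from 438 to 390 (-0.17), below ATPsynbeta. eIF4G1, the scaffold of cap-dependent translation, went from 9.52 to 16.9 (0.77), and MED26, a Mediator subunit gene, from 5.01 to 9.03 (0.74). With the 3 genes and their name groups kept, the median ratio was 0.53 over 47 genes and the median difference from like genes 0.025.

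The genes that regulate the chromosome or its histone methylation, which lie on other chromosomes, were read as a second list of 8. Pof went from 2.47 to 4.16, a ratio of 0.57 (interval 0.23 to 0.92). G9a, a histone H3 methyltransferase gene, was at 0.70, Su(var)3-7, an HP1a partner gene, at 0.58 and wde, the cofactor gene of egg, at 0.44. In point values these 4 were above the all-gene median, with egg (0.28), Su(var)3-3, which encodes Lsd1 itself (0.31), and the gene for HP1a (0.014) below it. The intervals of Pof, wde, egg and Su(var)3-3 held that median. Those of G9a and Su(var)3-7 lay wholly above it, and that of the HP1a gene wholly below. Su(var)3-3 passed the minimum only through the Lsd1-RIP library (0.926 and 1.39). Su(var)3-9, the founding histone methyltransferase gene of this kind, was listed at 0 in the control and at 3.49 after Lsd1-RIP, so it is counted on neither side and no fold is given. It shares its locus with eIF2gamma, which went from 29.0 to 36.5 (0.32), and the log2 ratio of their summed approximate fragments was 0.49, against an all-gene median of 0.43 on that measure.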

How the data were processed

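Gene FPKM, with lower and upper bounds and a status, were used as deposited by the authors, per the file headers, in 1 table per library. The submitters' processing notes list dm6, Cufflinks, SAMtools 0.1.18.0 and Bowtie2 2.0.6.0 without roles; the annotation is not given in the sources used here. Per the labels' protocols, libraries came from a TruSeq kit without poly(A) selection. Tables were joined on gene number and locus, and starts counted from 1. Biotypes came from a RefSeq table, matching 108 of 109 genes, 5 under another symbol.

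Intervals are 2 standard errors either way, reading the deposited bounds as 2 standard deviations from the FPKM. Approximate fragments come from the relative width of those bounds. They total 2661722 (IgG-RIP) and 2494964 (Lsd1-RIP), or 1039524 and 1201797 without ribosomal RNA, of which 1.01% and 1.13% fell on the 109 genes. Fragment ratios were scaled by 0.856, from 892 genes with whole fragments (within 0.02) in both libraries.

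Like genes were the nearest by log2 mean FPKM and log2 locus span, each divided by its SD, with RpL, RpS, eIF and MED names left out. The median fold gap to them was 1.09 in FPKM and 1.09 in span. The calculation was tested on simulated data, with a tolerance wider than the median difference reported here, so the test cannot speak to a difference of that size. Pericentric genes lay beyond 22 Mb on 2L, before 6 Mb on 2R, beyond 23 Mb on 3L, before 4 Mb on 3R or beyond 22 Mb on X, approximate limits chosen here. Members, lists and limits were chosen with earlier results of these data known. Genes named were the 8 highest and 8 lowest ratios, the 6 highest mean FPKM, the 3 furthest above and below like genes and all eligible genes of the role lists; others complete a list or were named after their values were seen. Python 3.11.15, pandas 2.3.3, numpy 2.4.6, scipy 1.17.1 and matplotlib 3.10.9 were used.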

Additional observations from a re-analysis of the deposited data

How the results depend on the processing

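The median difference from like genes ran from 0.013 to 0.18 under 19 alternatives, of which centring cannot change it. It moved beyond counting error, taken as 0.051, when like genes were matched on IgG-RIP FPKM and span (0.078) and on mean FPKM alone (0.18). The median ratio was 0.62 and 0.30 with pseudocounts of 0.1 and 5, 0.28 over 79 genes with no minimum, 0.20 after centring and 0.64 by approximate fragments, where the all-gene medians were 0.42, 0.16, 0.19, 0 and 0.43. It exceeded the all-gene median by 0.082 to 0.24 under the 12 alternatives run, of which centring cannot change this gap. The count of genes with a log2 ratio of 1 or more was 1 as reported with a pseudocount of 1, 4 with a pseudocount of 0.1, 3 by fragments, and 0 with a pseudocount of 5, a minimum of 5 or centring. Without a pseudocount, 4 eligible genes were at least 2-fold higher in FPKM: bip2, mav, bt and unc-13, at 2.10, 2.22, 2.31 and 2.64. Of these, bt passed the minimum only through the Lsd1-RIP library. The share over all eligible genes, 2.12%, was computed with a pseudocount of 1 only. The counts at the other settings, and without a pseudocount, therefore have no share to be read against. No alternative gave a gene with a log2 ratio of -1 or less. The ratio of unc-13 ran from 0.63 to 1.36. Centring put 12 of the 40 genes named by rule below 0, against 1 as reported; scaling to equal sums put 3. No paired analysis was possible because each group has 1 library. Without unc-13, with fragments matched on implied length and with pericentric genes as the only like genes, alternatives chosen after seeing the data, the values were 0.52 (median ratio), 0.035 and 0.067 (differences from like genes). With 1 library per group, no difference has a replicate check.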
